A study of Mus musculus with 15 samples.

Results

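The genes described here encode enzymes that write or erase marks on DNA and histones, their relatives, and proteins that read such marks. They were taken as every gene whose annotated symbol starts with Dnmt, Tet, Ezh, Kmt, Setd, Kdm, Kat, Sirt, Prmt or Brd followed directly by a digit, which gave 72 genes with 188 probe sets out of 18193 genes and 45101 probe sets on the array. Transcripts were measured on Affymetrix arrays of mouse primary chondrocytes, the cartilage cells of long bones from CD1 embryos at embryonic day 15.5. The cells were released by trypsin and collagenase, grown as monolayers and treated for 24 h in medium with ascorbic acid and β-glycerophosphate. There were 5 groups of 3 arrays. LY294002, an inhibitor of phosphoinositide 3-kinase (PI3K), was given at 10 µM. UO126, an inhibitor of the kinase MEK, was given at 10 µM. SB202190, which the series text groups with UO126 although its known target is p38 MAP kinase, was also given at 10 µM. Trichostatin A (TSA) inhibits histone deacetylases (HDACs), and its dose could not be read from the labels with certainty and is not given. Dimethyl sulfoxide (DMSO) was the vehicle of all 4 compounds and the control.

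DNA methyltransferases (Dnmt) add methyl groups to cytosine and Tet enzymes oxidise them. Lysine methyltransferases (Ezh, Kmt and many Setd proteins) and arginine methyltransferases (Prmt) mark histone tails and other proteins, and Kdm enzymes remove lysine methylation. Kat enzymes add acetyl groups, which the zinc-dependent HDACs that TSA inhibits and the NAD-dependent sirtuins (Sirt, not direct targets of TSA) remove, and bromodomain proteins (Brd) bind acetylated lysine. In cartilage, HDACs, EZH enzymes and SIRT1 are known to influence matrix genes and hypertrophic maturation.

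A probe set was tested when its mean signal, a linear intensity with no absolute unit, reached 50 in at least 1 group. Of the member genes, 67 passed with 111 probe sets, and each gene is described by its brightest tested probe set unless another is named. Dnmt3l, Kdm4d, Prmt8, Setd4 and Tet3 averaged under 50 in every group on all their probe sets and were not tested. The tested genes comprised 3 Dnmt, 2 Tet, 2 Ezh, 8 Kmt, 7 Setd, 17 Kdm, 8 Kat, 7 Sirt, 7 Prmt and 6 Brd genes. Changes are log2 differences of inhibitor minus DMSO with standard errors (SE), and a change was called when the adjusted p of limma's two-sided test was under 0.05 over all 21765 tested probe sets. The arrays had median signals of 29.8 to 40.0 and 40.9% to 45.0% of probe sets at or above 50, and arrays of a group correlated at r = 0.967 to 0.981 across probe sets.

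All 15 chondrocyte markers averaged at least 50 in every group, as did 8 to 9 of 10 fibroblast markers. Their summed signal was 38259 to 49414 on the LY294002 arrays, 40792 to 55627 with UO126, 28983 to 34221 with SB202190, 16243 to 19197 with TSA and 28781 to 44485 with DMSO. The sum was therefore lower on every TSA array than on any other array. With TSA, 0 of the 15 markers rose and 14 fell, while Col2a1, which encodes type II collagen, changed by 0.02 ± 0.19 (log2, SE; limma adjusted p = 0.95). Of the markers of other cells, 4 of 12 macrophage and leukocyte, 2 of 10 muscle and 3 of 9 endothelial markers averaged at least 50 with TSA, against 6, 9 and 2 with DMSO. Summed muscle signal was 370 to 420 with TSA and 1018 to 2154 with DMSO, macrophage and leukocyte signal 602 to 751 with TSA and 813 to 956 with DMSO, and endothelial signal 465 to 551 with TSA and 288 to 344 with DMSO. Fibroblast markers summed to 18230 to 22280 with TSA and 19470 to 28601 with DMSO. The part of these cell types in the results was not tested, and in such bulk cultures fewer cells of a type and less RNA per cell cannot be told apart.

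The 4 inhibitors were each compared with the same DMSO arrays, and most calls came with TSA. With TSA, 63 of 111 member probe sets passed the threshold, 23 higher and 40 lower, or 56.8% of members where 54.7% of all tested probe sets did. The share higher among all probe sets was 28.1% and the share lower 26.6%. By gene, 38 of 67 were called (56.7%), 16 higher and 22 lower, where 58.9% of all 11751 tested genes were (3593 higher and 3333 lower). The median change over the member genes was -0.15, against 0.00129 over all tested genes. The share of members that changed was thus near that of the array as a whole. The counts by family and gene list that follow are to be read beside the shares over all genes. LY294002 called 14 member probe sets, UO126 0 and SB202190 2.

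**Figure D1:**
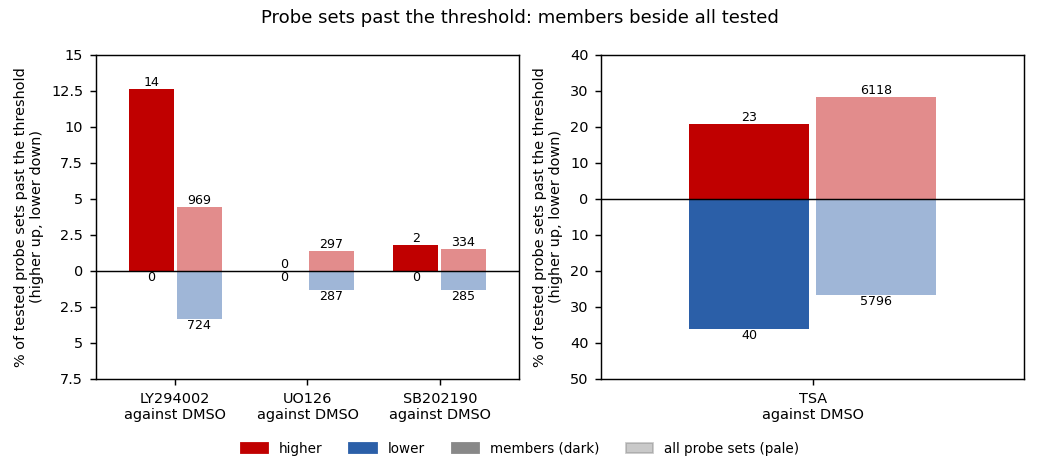
Percent of tested probe sets past the threshold (vertical axis, higher above 0 and lower below it) for the 111 member probe sets in dark bars and all 21765 tested probe sets in pale bars, for LY294002, UO126 and SB202190 on the left and TSA on the right, each against DMSO; the 2 panels have different scales. Numbers give probe sets: members had 14 higher and 0 lower with LY294002, and 23 higher and 40 lower with TSA.

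The 3 TSA arrays lay above all 12 other arrays for 9 genes: Kdm1b, Kdm3a, Kdm5b, Kdm7a, Kmt2a, Kmt2c, Kmt5c, Sirt2 and Sirt7. They lay below all 12 for 21 genes, among them Dnmt1, Ezh2, Kmt5b, Setd7, Kdm4a, Kat2a, Sirt1, Prmt1 and Brd9. By probe set these counts were 13 above and 35 below of 111, where 22.3% of all tested probe sets lay above and 19.4% below. Of the 29 genes with more than 1 tested probe set, 16 had every probe set called one way, 8 had none called and 5 had some called. Kdm6b was the only member with probe sets called in both directions.

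The stretches of 250 bases just before the RefSeq start sites (build GRCm38.p6) of Ezh1 and Kdm7a, which rose with TSA, and of Prmt1, which fell, are shown because these are genes with large changes whose upstream window overlaps no other annotated gene. All are read along the gene's own strand, which is the minus strand. Capitals mark the GC box (GGGCGG or, on the other strand, CCGCCC) and the CCAAT box (CCAAT or ATTGG).
Ezh1, chr11:101226464-101226713: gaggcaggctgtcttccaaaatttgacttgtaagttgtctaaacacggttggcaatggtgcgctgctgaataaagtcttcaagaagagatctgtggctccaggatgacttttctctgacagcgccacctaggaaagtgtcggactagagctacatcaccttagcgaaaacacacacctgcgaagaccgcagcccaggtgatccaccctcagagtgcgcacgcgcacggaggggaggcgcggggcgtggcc
Kdm7a, chr6:39206774-39207023: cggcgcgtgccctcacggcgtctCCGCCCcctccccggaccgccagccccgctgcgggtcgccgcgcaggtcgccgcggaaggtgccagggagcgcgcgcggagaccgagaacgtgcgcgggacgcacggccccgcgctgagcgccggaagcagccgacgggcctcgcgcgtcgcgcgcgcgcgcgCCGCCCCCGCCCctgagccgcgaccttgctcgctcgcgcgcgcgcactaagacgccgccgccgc
Prmt1, chr7:44986421-44986670: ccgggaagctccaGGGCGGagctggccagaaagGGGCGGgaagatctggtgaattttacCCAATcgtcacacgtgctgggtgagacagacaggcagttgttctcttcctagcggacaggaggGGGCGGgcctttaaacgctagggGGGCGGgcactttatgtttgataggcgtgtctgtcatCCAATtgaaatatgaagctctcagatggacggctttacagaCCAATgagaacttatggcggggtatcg
Prmt1 held 4 GC boxes and 3 CCAAT boxes, Kdm7a 3 GC boxes and no CCAAT box, and Ezh1 neither. The windows held 14 CpG dinucleotides in Ezh1, 56 in Kdm7a and 13 in Prmt1. RefSeq promoter windows were matched for 62 of the 72 genes (88 windows, since a gene can have several starts). A GC box stood in 62.5% of the member windows, against 32.7% of 32851 windows of the same length over all genes, and a CCAAT box in 35.2%, against 33.8%. The windows over all genes were not limited to tested genes. They held a median of 6 CpG dinucleotides, against 17.5 in the member windows. Windows of members higher with TSA (16) had a GC box in 75% and a CCAAT box in 25%, and those of members lower with TSA (30) in 66.7% and 36.7%. A match is a description of the letters, not of binding.

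Among the DNA methylation enzymes with TSA, 0 of 3 Dnmt genes rose and 2 fell, and neither of the 2 tested Tet genes passed the threshold, with limma's unadjusted p under 0.05 giving the same counts. Over all tested genes 58.9% were called with TSA. Dnmt1, which copies methylation onto the new strand after replication, had signals of 477, 448 and 456 on the TSA arrays, against 671, 797 and 804 on the DMSO arrays. All TSA arrays lay below all DMSO arrays, a 1.64-fold lower signal (log2 change -0.71 ± 0.08, limma adjusted p = 3.84e-06). Its other 2 probe sets fell by 0.98 and 0.93. Dnmt3a, a de novo methyltransferase, fell by 0.49 ± 0.17 (limma adjusted p = 0.0225), a call lost without TSA replicate 2, DMSO replicate 1 or DMSO replicate 2 (limma adjusted p 0.0537 to 0.119). Dnmt3b, the other de novo enzyme, changed by -0.15 ± 0.19. Tet1 had signals of 35.1, 58.3 and 53.7 with TSA, against 64.5, 62.4 and 54.1 with DMSO. Its groups overlapped, and the change of -0.33 ± 0.20 did not pass (limma adjusted p = 0.17).

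Partners of DNA methylation outside the naming rule gave 3 genes higher and 4 lower of 10 tested. Hells, a remodelling factor needed for DNA methylation, averaged 85.1 ± 10.8 with TSA and 421 ± 69.8 with DMSO (SD, n = 3 each; log2 change -2.30, limma adjusted p = 4.06e-09). Uhrf1, which recruits DNMT1 to newly replicated DNA, averaged 165 ± 5.37 with TSA and 518 ± 123 with DMSO (log2 change -1.62, limma adjusted p = 2.09e-06). Both therefore fell further than Dnmt1 on the log2 scale, while Gadd45a, a stress gene linked to demethylation, rose by 0.76. Genes of S phase and DNA replication fell over the same arrays, with 0 higher and 29 lower of 33 tested and a median change of -1.26, and those of G2 and mitosis with 0 higher and 25 lower of 25 and a median of -1.99. How far Dnmt1, Ezh2 or other members followed these cell cycle genes was not tested.

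The catalytic subunits of Polycomb repressive complex PRC2, which methylate lysine 27 of histone H3, moved in opposite directions with TSA. Ezh1 had signals of 130, 145 and 195 on the TSA arrays and 69.0, 65.8 and 76.0 on the DMSO arrays. The groups did not overlap, and the signal was 2.20-fold higher (log2 change 1.14 ± 0.26, limma adjusted p = 0.00176). This was the only Ezh1 probe set tested. The brightest of the untested ones averaged 46.4 with TSA and 42.2 with DMSO. On the tested probe set LY294002 replicate 3 read 138, above TSA replicate 1. Ezh2, the form typical of dividing cells, had signals of 375, 449 and 425 with TSA, against 616, 494 and 521 with DMSO. All its TSA arrays lay below the DMSO arrays, with a change of -0.38 ± 0.11 (limma adjusted p = 0.00779), and the call was lost when each array was centred on its median (limma adjusted p = 0.0646). Of 24 tested Polycomb subunits outside the rule, 6 rose and 4 fell. Pcgf5 and Cbx2, subunits of PRC1, rose by 1.28 and 0.97, and Bmi1, another PRC1 subunit, fell by 1.05. The PRC2 core subunits Eed and Suz12 changed by 0.10 (limma adjusted p = 0.401) and -0.05 (limma adjusted p = 0.791).

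Of the 8 Kmt genes, 3 rose and 3 fell with TSA, or 75% called where 58.9% of all tested genes were. Kmt2a, the MLL1 enzyme that methylates lysine 4 of histone H3, had signals of 179, 182 and 207 on the TSA arrays, against 107, 110 and 113 on the DMSO arrays. Kmt2c, or MLL3, which marks enhancers, had 238, 261 and 342 with TSA and 160, 147 and 166 with DMSO. For both genes every TSA array was the higher, with log2 changes of 0.78 ± 0.13 for Kmt2a (limma adjusted p = 0.000112) and 0.82 ± 0.13 for Kmt2c (limma adjusted p = 8.53e-05). Their other tested probe sets rose as well, by 0.94 for Kmt2a and by 0.95 and 0.47 for Kmt2c. The relatives Kmt2d and Kmt2e changed by 0.13 ± 0.15 and -0.14 ± 0.10 and did not pass, and Kmt2b fell by 0.48 ± 0.15 (limma adjusted p = 0.0103). The Kmt2b call was lost without DMSO replicate 3 (limma adjusted p = 0.05004).

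The methyltransferases of lysine 20 of histone H4 divided by member. Kmt5b, which adds the methyl groups after the first, had signals of 57.7, 36.5 and 46.4 with TSA, against 197, 146 and 131 with DMSO. This was 3.38-fold lower with no overlap (log2 change -1.76 ± 0.20, limma adjusted p = 2.09e-06), and its other 2 probe sets fell by 1.47 and 0.65. Kmt5c, its close relative, had signals of 396, 369 and 382 with TSA and 225, 256 and 227 with DMSO. It stood 1.62-fold higher with no overlap (log2 change 0.70 ± 0.10, limma adjusted p = 1.62e-05). Kmt5a, which adds the first methyl group, fell by 0.83 ± 0.17 (limma adjusted p = 0.000799). Opposite directions thus passed the threshold within this group of 3 enzymes.

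Among the 7 tested Setd genes, 1 rose and 2 fell with TSA, or 42.9% called where 58.9% of all tested genes were. Setd1b, a histone H3 lysine 4 methyltransferase of the COMPASS type, had signals of 144, 162 and 174 on the TSA arrays and 293, 354 and 330 on the DMSO arrays. Setd7, which methylates histone H3 and several non-histone proteins, had 266, 304 and 339 with TSA, against 572, 625 and 620 with DMSO. Each was lower with no overlap, 2.04-fold for Setd1b (log2 change -1.03 ± 0.13, limma adjusted p = 9.18e-06) and 2.01-fold for Setd7 (log2 change -1.01 ± 0.10, limma adjusted p = 3.47e-07). Setd1a, the paralog of Setd1b, changed by 0.21 ± 0.26 and did not pass (limma adjusted p = 0.53). Setd2, which methylates lysine 36 of histone H3 during transcription, had signals of 333, 435 and 383 with TSA and 263, 263 and 297 with DMSO, and rose by 0.48 ± 0.10 with no overlap (limma adjusted p = 0.00114). Subunits of COMPASS complexes included 1 gene higher and 7 lower of 12, with a median change of -0.33. Wdr82, which binds the Setd1 enzymes, averaged 261 ± 32.6 with TSA and 518 ± 71.3 with DMSO (SD, n = 3 each; limma adjusted p = 0.000166). Other histone methyltransferases named outside the rule gave 3 higher and 8 lower of 19. They include Nsd1, a histone H3 lysine 36 methyltransferase that fell by 1.12, and the arginine methyltransferase Carm1 (also Prmt4), which fell by 1.11.

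Of the 17 tested Kdm demethylase genes, 7 rose and 3 fell with TSA, where 3593 of all 11751 tested genes rose and 3333 fell. Kdm1b, an amine-oxidase demethylase of histone H3 lysine 4, had signals of 301, 257 and 281 on the TSA arrays, against 135, 119 and 116 on the DMSO arrays. Kdm5b, a Jumonji demethylase of the same residue, had 713, 620 and 672 with TSA and 349, 324 and 301 with DMSO. Kdm7a, which acts on lysines 9 and 27 of histone H3, had 161, 145 and 153 with TSA, against 78.3, 68.7 and 92.2 with DMSO. For these 3 genes every TSA array lay above every DMSO array. The signal was 2.26-fold higher for Kdm1b (log2 change 1.18 ± 0.13, limma adjusted p = 2.57e-06), 2.06-fold for Kdm5b (1.04 ± 0.10, limma adjusted p = 3.54e-07) and 1.93-fold for Kdm7a (0.95 ± 0.14, limma adjusted p = 4.27e-05). Other probe sets of Kdm5b and Kdm7a rose by 1.56 and 1.14. Kdm1a, the paralog of Kdm1b, had signals of 930, 913 and 856 with TSA, against 899, 915 and 825 with DMSO, and changed by only 0.03 ± 0.08 (limma adjusted p = 0.74).

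The falls among demethylases were Kdm4a, Kdm8 and Kdm5d. Kdm4a, a demethylase of histone H3 lysines 9 and 36, had signals of 115, 74.5 and 69.0 with TSA and 152, 211 and 149 with DMSO. It stood 2.01-fold lower with no overlap (log2 change -1.01 ± 0.21, limma adjusted p = 0.000774). Kdm8, a Jumonji-domain hydroxylase, had 16.04, 23.7 and 20.4 with TSA, against 95.3, 92.7 and 61.8 with DMSO. Its change of -2.04 ± 0.22 (limma adjusted p = 1.34e-06) was the lowest value of any tested member gene, and it rested on signals under 100 in both groups. Kdm5d, which lies on the Y chromosome, fell by 1.13 ± 0.21 (42.9 ± 4.80 with TSA and 95.2 ± 23.4 with DMSO; SD, n = 3 each), while its X-linked relative Kdm5c had none of 4 probe sets called.

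Kdm3a and Kdm6a, demethylases of lysines 9 and 27 of histone H3, rose by 0.50 ± 0.11 and 0.34 ± 0.11 with TSA. The Kdm6a call was lost without TSA replicate 3 or DMSO replicate 2 (limma adjusted p 0.0519 to 0.0746) and when arrays were centred on their medians. Kdm6b, which also removes methyl groups from lysine 27, had signals of 158, 192 and 216 with TSA, against 134, 123 and 102 with DMSO, on its brightest probe set. There it rose by 0.65 ± 0.15 with no overlap (limma adjusted p = 0.00199). The second of its 3 tested probe sets read 27.2, 46.1 and 33.6 with TSA and 46.3, 58.3 and 50.04 with DMSO, a change of -0.56 ± 0.21 (limma adjusted p = 0.031) that was lost without TSA replicate 1 or 3 or DMSO replicate 2 or 3 (limma adjusted p 0.0561 to 0.148). The third read 135, 140 and 64.0 with TSA, against 20.8, 152 and 34.4 with DMSO, so the groups overlapped, and its change was 1.16 ± 0.62 (limma adjusted p = 0.124). Of the 3 probe sets of Kdm6b, 2 were thus positive, and 1 was called in each direction. Of 9 demethylases or relatives named outside the rule, 3 rose and 2 fell, and Jarid2, a non-enzymatic PRC2 partner, rose by 1.20.

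**Figure D2:**
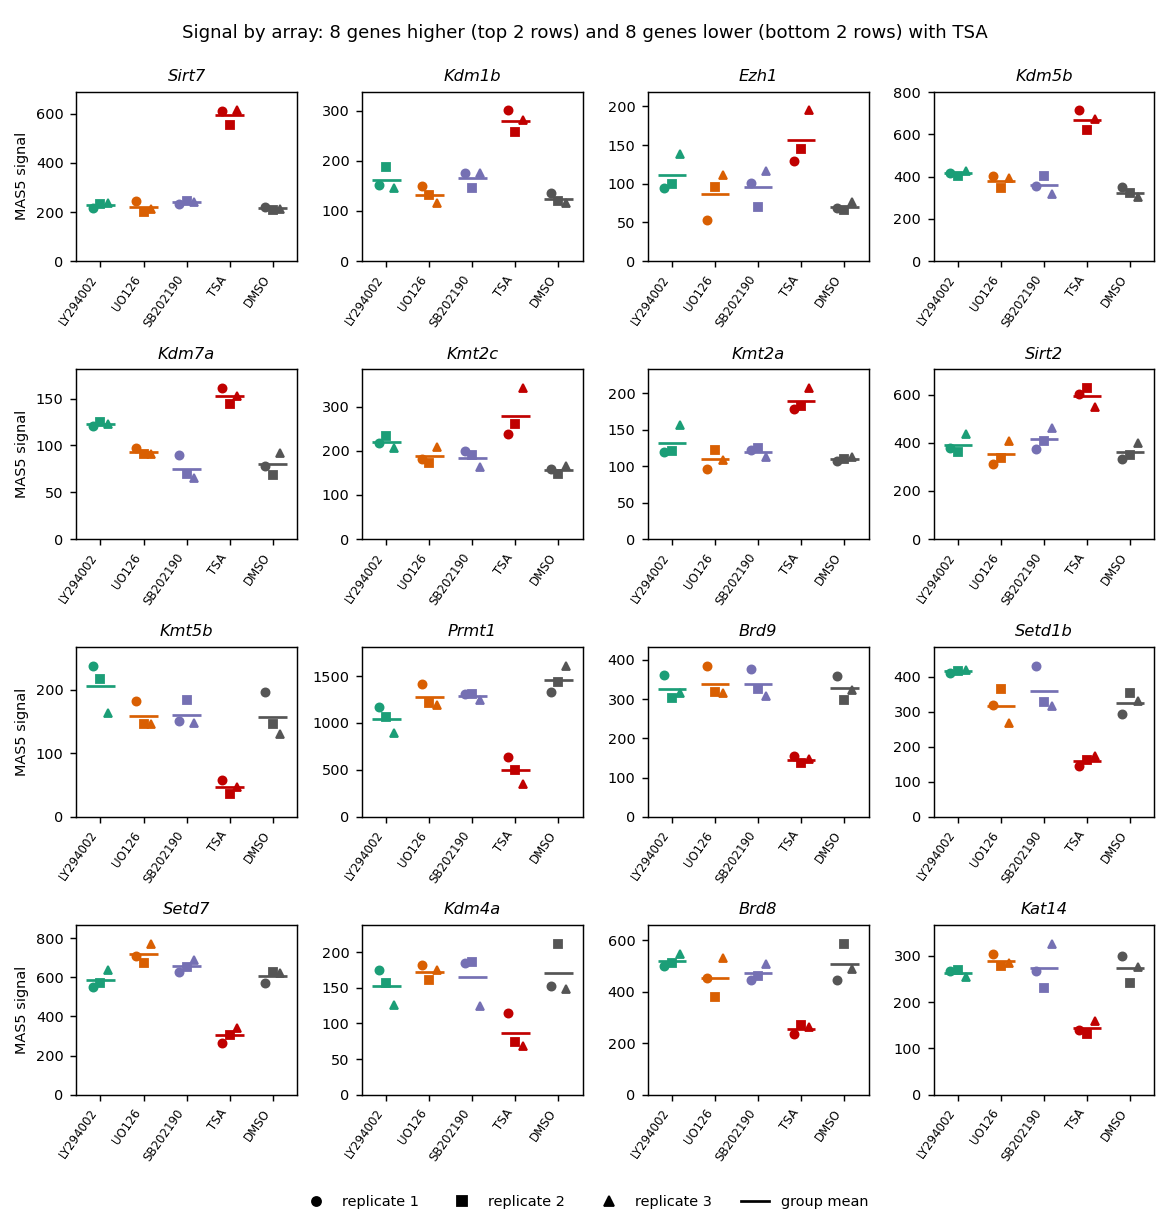
MAS5 signal (vertical axis, linear from 0) on each of the 3 arrays of the LY294002, UO126, SB202190, TSA and DMSO groups for 16 genes with large changes with TSA; symbols give the replicate number and lines the group mean. In the top 2 rows (Sirt7 to Sirt2) the TSA arrays lie above the DMSO arrays, and in the bottom 2 rows (Kmt5b to Kat14) below them.

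Of the 8 Kat genes, 0 rose and 3 fell with TSA (0 and 3 at an unadjusted p under 0.05). The called share of 37.5% was below the 58.9% over all tested genes. Kat14, an acetyltransferase subunit of the ATAC complex, had signals of 139, 130 and 160 on the TSA arrays and 300, 242 and 277 on the DMSO arrays. It stood 1.91-fold lower with no overlap (log2 change -0.93 ± 0.12, limma adjusted p = 1.22e-05), and its other probe set fell by 0.67. Kat2a (GCN5) and Kat5 (TIP60), catalytic subunits of SAGA and NuA4, fell by 0.64 ± 0.12 (limma adjusted p = 0.000392) and 0.69 ± 0.11 (limma adjusted p = 5.96e-05). Kat2b (PCAF), the paralog of Kat2a, had 174, 138 and 203 with TSA, against 238, 155 and 151 with DMSO. Its groups overlapped and the change was -0.06 ± 0.17 (limma adjusted p = 0.78). Kat6a, Kat6b, Kat7 and Kat8, of the MYST family, changed by 0.00, 0.18, -0.07 and -0.22 and did not pass. Acetyltransferases and subunits named outside the rule gave 7 higher and 16 lower of 34, with Ep300 and Crebbp, the p300 and CBP enzymes, lower by 0.30 and 0.56 on the log2 scale. Msl1 and Jade2, scaffold subunits of MYST complexes, fell by 1.26 and 1.32.

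Among the 7 sirtuins, 2 rose and 1 fell with TSA, or 42.9% called where 58.9% of all tested genes were. Sirt7, a nucleolar deacetylase, had signals of 611, 557 and 614 on the TSA arrays, against 222, 209 and 214 on the DMSO arrays. Every TSA array was more than 2-fold above every DMSO array, and the mean rise of 2.76-fold (log2 change 1.46 ± 0.09, limma adjusted p = 3.87e-09) had the highest value among the member genes on their brightest probe sets. Sirt2, a mainly cytoplasmic deacetylase of tubulin and histone H4, had 605, 628 and 549 with TSA and 335, 349 and 400 with DMSO. It was 1.65-fold higher with no overlap (log2 change 0.72 ± 0.12, limma adjusted p = 8.58e-05). Sirt1, the nuclear deacetylase studied in cartilage, had 155, 130 and 129 with TSA, against 249, 175 and 190 with DMSO. All its TSA arrays lay below the DMSO arrays, with a change of -0.56 ± 0.15 (limma adjusted p = 0.00599). The mitochondrial sirtuins Sirt3, Sirt4 and Sirt5 changed by -0.15, 0.46 and -0.22, and nuclear Sirt6 by -0.41, none past the threshold. Of 9 tested HDAC genes, which include the targets of TSA, 3 rose and 2 fell. Hdac1 averaged 1456 ± 50.9 with TSA and 1170 ± 65.8 with DMSO (SD, n = 3 each; limma adjusted p = 0.00849).

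Of the 7 tested Prmt genes, 2 rose and 3 fell with TSA, or 71.4% called where 58.9% of all tested genes were. Prmt1, the main asymmetric arginine methyltransferase, had signals of 642, 503 and 349 on the TSA arrays, against 1327, 1439 and 1605 on the DMSO arrays. It was 3.01-fold lower with no overlap (log2 change -1.59 ± 0.16, limma adjusted p = 9.18e-07). Prmt2, a weaker arginine methyltransferase and nuclear receptor coactivator, had 817, 817 and 805 with TSA and 662, 624 and 632 with DMSO. Its change was small but the arrays were close within each group and did not overlap (log2 change 0.35 ± 0.07, limma adjusted p = 0.000457). Prmt3 and Prmt7 fell by 0.43 and 0.48, and the Prmt3 call was lost without TSA replicate 2 (limma adjusted p = 0.0504). Prmt9 rose by 0.28 ± 0.12 (limma adjusted p = 0.0489), which was lost without any TSA array or without DMSO replicate 2 or 3 (limma adjusted p 0.0612 to 0.17). Prmt5, the main symmetric enzyme, had 495, 539 and 582 with TSA, against 550, 579 and 566 with DMSO, and changed by -0.07 ± 0.08 (limma adjusted p = 0.49).

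Of the 6 Brd genes, 0 rose and 4 fell with TSA, and by probe set 0 rose and 10 fell of 13 (1 higher and 11 lower with limma's unadjusted p under 0.05). The called share was 66.7% of the genes and 76.9% of the probe sets. Over the array 58.9% of tested genes and 54.7% of tested probe sets were called, with 26.6% of probe sets lower. Brd9, a reader in SWI/SNF remodelling complexes, had signals of 154, 137 and 148 on the TSA arrays and 360, 298 and 324 on the DMSO arrays. Brd8, a reader in the NuA4 acetyltransferase complex, had 237, 269 and 264 with TSA, against 447, 585 and 489 with DMSO. Both were lower on every TSA array, by 2.24-fold for Brd9 (log2 change -1.16 ± 0.11, limma adjusted p = 4.99e-07) and 1.97-fold for Brd8 (-0.97 ± 0.12, limma adjusted p = 5.51e-06). Brd2, a BET family reader of acetylated histone H4, fell by 0.66 ± 0.09 (limma adjusted p = 2.32e-05). Brd3, also of the BET family, changed by -0.22 ± 0.09 on its brightest probe set (limma adjusted p = 0.063), and 2 of its 4 probe sets fell. Brd1, a subunit of MYST acetyltransferase complexes, fell by 0.32 ± 0.11 (limma adjusted p = 0.0216), which was lost without TSA replicate 3 or DMSO replicate 1 or 3 (limma adjusted p 0.0603 to 0.0838). Bromodomain proteins named outside the rule gave 4 higher and 10 lower of 20, with Baz2a higher by 1.03 and Atad2 lower by 1.54.

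With LY294002, some histone demethylases and methyltransferases rose modestly and no member fell past the threshold. The test called 14 of 111 member probe sets, all higher, or 12.6% where 7.78% of all tested probe sets were called (4.45% higher and 3.33% lower). Without adjustment (p under 0.05), 35 member probe sets stood higher and 2 lower. By brightest probe set, 9 of 67 genes were called (13.4%), where 9.47% of all 11751 tested genes were (662 higher and 451 lower). They were the demethylases Kdm7a, Kdm5a, Kdm6a and Kdm5b, the methyltransferases Kmt2d, Kmt2c, Setd2 and Prmt2, and the reader Brd3. A further gene, Kdm5c, was called through a dimmer probe set only. The median change over member genes was 0.12, against 0.01 over all tested genes. When each array was centred on its median signal, the median of all genes moved to 0.14 and that of the members to 0.24, and 14 member probe sets were again called, all higher, while the split over all probe sets changed to 1019 higher and 171 lower. With the replicate number as a block, which the arrays of LY294002 and DMSO bore out, 24 member probe sets passed, 22 higher and 2 lower. Leaving out DMSO replicate 2 left 3 calls, and leaving out DMSO replicate 1 gave 18.

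Kdm5a, a demethylase of histone H3 lysine 4, had signals of 319, 344 and 355 on the LY294002 arrays, against 253, 209 and 212 on the DMSO arrays. Every LY294002 array lay above every DMSO array, and the signal was 1.52-fold higher (log2 change 0.60 ± 0.12, limma adjusted p = 0.00764). This was the only one of the 14 calls that held without each array in turn and under every other setting tried (limma adjusted p up to 0.0354). Its UO126 arrays read 261, 218 and 256 and its SB202190 arrays 229, 220 and 234, so that LY294002 also stood above both, with differences of 0.47 from UO126 (limma adjusted p = 0.0275) and 0.57 from SB202190 (limma adjusted p = 0.00968). Of its 3 tested probe sets, this was the one called.

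Kdm7a had signals of 121, 125 and 123 with LY294002, against 78.3, 68.7 and 92.2 with DMSO. The groups did not overlap and the signal was 1.55-fold higher (log2 change 0.64 ± 0.14, limma adjusted p = 0.0148), a call lost without LY294002 replicate 2 or DMSO replicate 2 (limma adjusted p 0.0516 to 0.064). A second probe set read 127, 118 and 129 with LY294002, against 80.5, 58.2 and 79.5 with DMSO, and rose by 0.79 ± 0.16 (limma adjusted p = 0.0081). That call held without each array in turn but not with the LY294002 and DMSO arrays alone in the fit (limma adjusted p = 0.0564). Against SB202190, LY294002 was higher on both probe sets, by 0.73 (limma adjusted p = 0.00666) and 1.02 (limma adjusted p = 0.00156). Kdm7a was thus measured as higher by a pair of probe sets, at signals below those on every TSA array. The direct difference of TSA from LY294002 did not pass on either probe set (limma adjusted p = 0.0786 and 0.0782).

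Kdm5b had signals of 417, 404 and 425 with LY294002 and 349, 324 and 301 with DMSO, and Kdm6a had 344, 309 and 268 with LY294002 and 247, 223 and 226 with DMSO. Neither pair of groups overlapped, and the rises were 0.36 ± 0.10 for Kdm5b (limma adjusted p = 0.0384) and 0.40 ± 0.11 for Kdm6a (limma adjusted p = 0.0405). A dimmer probe set of Kdm5b rose by 0.77 ± 0.18 (limma adjusted p = 0.0167). The Kdm5b call on its brightest probe set was lost without any LY294002 array or without DMSO replicate 2 or 3 (limma adjusted p 0.08 to 0.133), and the Kdm6a call without LY294002 replicate 1 or 2 or DMSO replicate 2 or 3 (0.104 to 0.154). One probe set of Kdm5c, not its brightest, read 93.9, 91.5 and 93.0 with LY294002, against 63.2, 60.1 and 53.4 with DMSO, and rose by 0.66 ± 0.14 (limma adjusted p = 0.0106). It was the only one of 4 tested probe sets of Kdm5c that was called, and the brightest changed by -0.25 ± 0.27 (limma adjusted p = 0.62).

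Kmt2c had signals of 217, 235 and 206 on the LY294002 arrays, against 160, 147 and 166 on the DMSO arrays. Kmt2d, its paralog MLL4, had 159, 192 and 205 with LY294002 and 115, 114 and 158 with DMSO. The groups did not overlap for either gene, with rises of 0.48 ± 0.13 for Kmt2c (limma adjusted p = 0.0386) and 0.54 ± 0.15 for Kmt2d (limma adjusted p = 0.0398), although the lowest LY294002 and highest DMSO arrays of Kmt2d were nearly equal. The Kmt2c call was lost without any 1 of the 6 arrays (limma adjusted p 0.0584 to 0.124), and the Kmt2d call without LY294002 replicate 2 or 3 or DMSO replicate 1 or 2 (0.0935 to 0.139). Setd2 had 398, 374 and 366 with LY294002 and 263, 263 and 297 with DMSO, a rise of 0.47 ± 0.10 with no overlap (limma adjusted p = 0.0139) that was lost without LY294002 replicate 1 or DMSO replicate 2 (0.0527 to 0.0535). Prmt2 had 777, 761 and 772 with LY294002, against 662, 624 and 632 with DMSO. Its rise of 0.27 ± 0.07 (limma adjusted p = 0.0261) was lost without any LY294002 array or without DMSO replicate 2 or 3 (0.0657 to 0.0857) and when arrays were centred. Brd3 had 404, 385 and 429 with LY294002 and 306, 283 and 342 with DMSO, and its rise of 0.39 ± 0.09 (limma adjusted p = 0.0213) was lost without LY294002 replicate 1 or 3 or DMSO replicate 2 (0.0569 to 0.0878). It was the only one of 4 tested probe sets of Brd3 that was called, and the others changed by 0.35, -0.10 and -0.07.

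**Figure D3:**
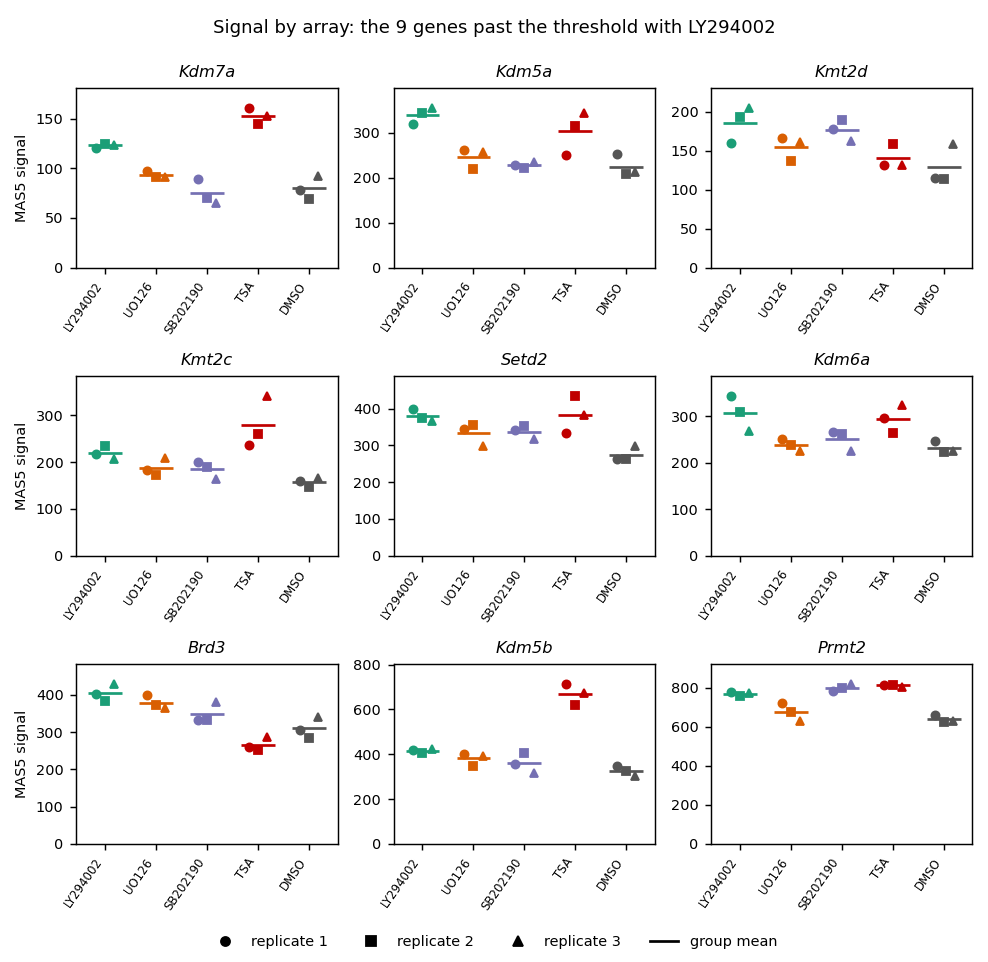
MAS5 signal (vertical axis, linear from 0) on each array of the 5 groups for the 9 genes past the threshold with LY294002 against DMSO; symbols give the replicate number and lines the group mean. All 3 LY294002 arrays lie above all 3 DMSO arrays in each panel, and all TSA arrays lie above both groups for Kdm7a, Kdm5b, Kmt2c and Prmt2.

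Several members came close to the threshold with LY294002 without passing it. Prmt1 had signals of 1166, 1069 and 898 with LY294002, against 1327, 1439 and 1605 with DMSO, a change of -0.48 ± 0.16 with no overlap (limma adjusted p = 0.0837). With the replicate block it passed (limma adjusted p = 0.0425), as did 1 probe set of Kat2a on the lower side (0.00757) and Sirt1 on the higher (0.00785). Kdm6b and Brd2 were higher by 0.52 and 0.31 (limma adjusted p = 0.0511 and 0.0541). The TSA comparison shares the DMSO arrays, and for the 9 genes called with LY294002 its log2 changes were 0.95 for Kdm7a, 0.43 for Kdm5a, 0.34 for Kdm6a, 1.04 for Kdm5b, 0.13 for Kmt2d, 0.82 for Kmt2c, 0.48 for Setd2, 0.35 for Prmt2 and -0.22 for Brd3. Set directly against LY294002, TSA was higher for Kdm5b by 0.68 (limma adjusted p = 2.92e-05) and Kmt2c by 0.34 (limma adjusted p = 0.0423), and lower for Brd3 by 0.61 (limma adjusted p = 5.86e-05) and Kmt2d by 0.40 (limma adjusted p = 0.033). Outside the naming rule, LY294002 raised 3 and lowered 1 of 34 acetyltransferase genes (Trrap, Epc2 and Ncoa1 higher, Hat1 lower), and raised 2 of 9 demethylases and relatives (Hif1an and Jmjd1c) and 2 of 20 bromodomain genes (Phip and Pbrm1). Of 10 DNA methylation partners, Gadd45a rose and Apobec1 fell. By limma's adjusted p, 0 of 19 other histone methyltransferases, 0 of 24 Polycomb subunits, 0 of 12 COMPASS subunits and 0 of 9 histone deacetylases were called. Unadjusted (p under 0.05), the methyltransferases had 1 higher and 2 lower, the Polycomb subunits 3 and 0, and the COMPASS subunits and the deacetylases 1 and 1 each. Over all tested genes 9.47% were called.

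SB202190 called 2 of 111 member probe sets, both higher, where 2.84% of all tested probe sets were called (1.53% higher and 1.31% lower). Without adjustment (p under 0.05), 11 stood higher and 2 lower. Prmt2 had signals of 785, 799 and 820 on the SB202190 arrays, against 662, 624 and 632 on the DMSO arrays (log2 change 0.33 ± 0.07, limma adjusted p = 0.0193). Kmt5c had 289, 299 and 335 with SB202190 and 225, 256 and 227 with DMSO (0.38 ± 0.10, limma adjusted p = 0.0438). Neither gene's groups overlapped. The Prmt2 call was lost without any SB202190 array or without DMSO replicate 2 or 3 (limma adjusted p 0.0575 to 0.0726), the Kmt5c call without any 1 of the 6 arrays (0.0541 to 0.142), and both when arrays were centred on their medians.

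UO126 called 0 of 111 member probe sets with limma, where 2.68% of all tested probe sets were called (1.36% higher and 1.32% lower). Without adjustment (p under 0.05), 10 member probe sets stood higher and 4 lower, and with the replicate block Brd3 passed (log2 change 0.29, limma adjusted p = 0.0464). The member nearest the threshold was Kdm6b, with signals of 174, 153 and 211 on the UO126 arrays, against 134, 123 and 102 on the DMSO arrays. The groups did not overlap, and the change was 0.58 ± 0.15 (limma adjusted p = 0.0582). Tet1 had 85.7, 72.2 and 94.7 with UO126 and 64.5, 62.4 and 54.1 with DMSO, also without overlap, at 0.48 ± 0.20 (limma adjusted p = 0.273).

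Between the kinase inhibitors few members differed. LY294002 against UO126 called 7 probe sets, all higher with LY294002 (6.61% of all tested probe sets were called, 3.59% higher and 3.02% lower), and with the replicate block 13, 12 higher and 1 lower. Besides Kdm5a and single probe sets of Kdm7a, Kdm5c and Dnmt1 these were Sirt1, Kat6a and Brd2. Sirt1 had signals of 316, 270 and 239 with LY294002, against 216, 180 and 161 with UO126, with no overlap (log2 difference 0.57, limma adjusted p = 0.0381). Kat6a (MOZ) was higher by 0.50 (limma adjusted p = 0.0375) and Brd2 by 0.39 (limma adjusted p = 0.0226). LY294002 against SB202190 called 5 probe sets, 4 higher and 1 lower (6.09% of all, 3.07% higher and 3.02% lower), and UO126 against SB202190 called 3, all lower (8.19% of all, 4.11% higher and 4.08% lower). In both, Kat2a was lower: its signals were 329, 307 and 281 with LY294002 and 361, 256 and 278 with UO126, against 398, 391 and 450 with SB202190. The difference was -0.44 for LY294002 (limma adjusted p = 0.0496) and -0.48 for UO126 (limma adjusted p = 0.0238). UO126 was also below SB202190 for Prmt2, by 0.24 on the log2 scale (limma adjusted p = 0.0373). Centring arrays on their medians reduced these 3 counts to 4, 3 and 0, and changed the splits over all probe sets to 626 higher and 183 lower for LY294002 against UO126 and 498 higher and 217 lower for LY294002 against SB202190. Uncentred, these splits were 781 and 658 and 669 and 657.

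TSA was also set against each kinase inhibitor. Against LY294002 it called 54 member probe sets, 10 higher and 44 lower (53.4% of all tested probe sets were called, 27% higher and 26.3% lower). Against UO126 it called 64, 22 higher and 42 lower (55.1% of all, 28.5% higher and 26.6% lower), and against SB202190 62, 19 higher and 43 lower (52.5% of all, 26.4% higher and 26.1% lower). The median over member genes was -0.26 against LY294002, -0.17 against UO126 and -0.23 against SB202190, where all tested genes had 0.02, 0.000307 and -0.00446. Sirt7 was higher with TSA by 1.38 against LY294002, 1.44 against UO126 and 1.31 against SB202190 on the log2 scale, with the highest limma adjusted p at 1.49e-08. Prmt1 was lower by 1.10, 1.39 and 1.41 in the same order, and Kmt5b by 2.14, 1.77 and 1.80. Centring moved the split over all probe sets in TSA against LY294002 to 4175 higher and 6331 lower (5885 and 5731 uncentred), and that of the members to 7 higher and 50 lower.

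**Figure D4:**
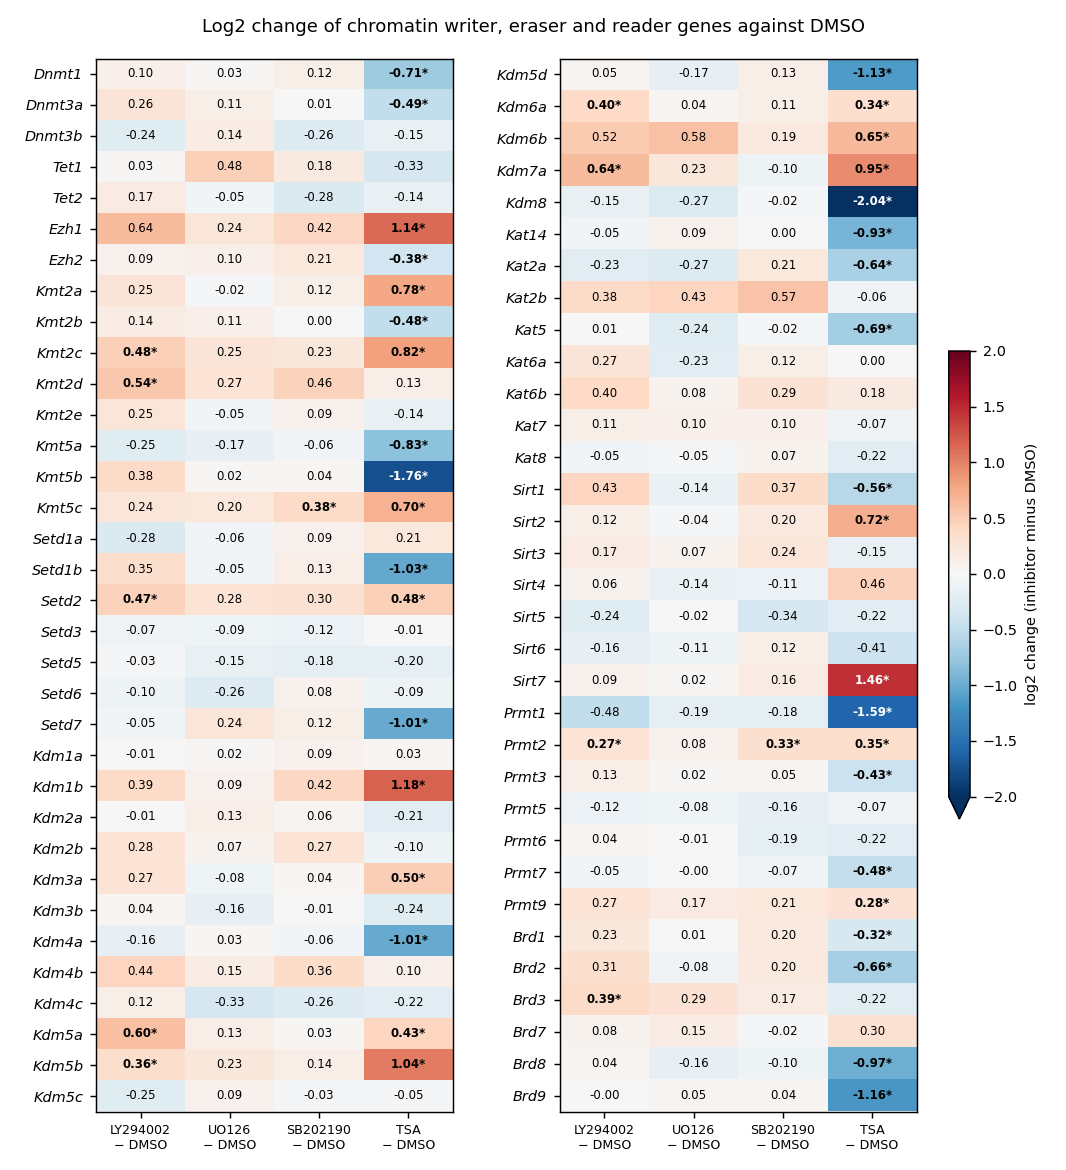
Log2 change (inhibitor minus DMSO; colour from blue for lower to red for higher, with the number printed in each cell) of the 67 tested member genes, ordered by family, for LY294002, UO126, SB202190 and TSA; an asterisk and bold type mark a limma adjusted p under 0.05. The TSA column holds 38 asterisks, 16 higher and 22 lower, the LY294002 column 9, the SB202190 column 2 and the UO126 column 0.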

How the data were processed

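The authors made signal intensity values with MAS5 from the hybridised arrays and deposited them as 1 table of linear intensity, in which each array has a 2% trimmed mean of 150. No detection calls were used here, so dim probe sets are uncertain, and the trimmed-mean scaling assumes equal total signal per array. Groups and replicate numbers came from the sample titles. Genes were named through the platform annotation: 34958 probe sets have 1 symbol, 932 several and 9211 none, and 4 probe sets carrying a member symbol beside another were left out. All 72 member symbols matched RefSeq by gene ID. The files held 0 unused value columns.

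A floor of 1 was applied to the signals before log2, and probe sets with a group mean of at least 50 in at least 1 of 5 groups were kept. All 15 arrays were fitted by group with limma 3.58.1 in R 4.3.3 (lmFit, eBayes with trend, Benjamini-Hochberg over 21765 probe sets, 10 comparisons). The procedure was run on simulated data with independent noise and changes in few probe sets. That run does not cover changes as widespread as those with TSA, nor correlated arrays. A gene was represented by its probe set of highest mean log2 signal. Values on every array are given for genes called with a kinase inhibitor, for the 8 largest rises and falls with TSA whose higher group averaged at least 100, and for fixed genes of the families; others named were chosen after their values were seen. The members and gene lists were chosen with earlier results of these data known. Arrays of the same number deviated together in every comparison, with a positive r for each pair. The correlation held best across all pairs for LY294002 and DMSO (r = 0.42, 0.16 and 0.30), UO126 and DMSO, LY294002 and UO126, and TSA and SB202190. Elsewhere it was weaker in some pairs, down to r = 0.02 for TSA and LY294002. The main fit used no block. The series calls the arrays biological replicates, and their number limits the precision. Alternatives were quantile normalization, median centring, 3 other filters, 2 other transforms, no variance trend, the replicate block, only the 2 groups compared, the mean of a gene's probe sets, and leaving out each array. Median centring used the median over all probe sets of an array, tested or not, which lay under the filter of 50 on every array. Uncentred, the median log2 signal of the tested probe sets ranged from 7.37 to 7.45 over the arrays. RefSeq promoter windows were searched on both strands.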

Additional observations from a re-analysis of the deposited data

How the results depend on the processing

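No member count reversed direction under any alternative tried. Among genes, reversal was scored only for those called with LY294002 or SB202190 on their brightest probe set, and for a chosen set with TSA. That set held the largest rises and falls whose higher group averaged at least 100, with Dnmt1, Ezh2, Sirt1 and Kdm6b. None of the scored genes reversed. Over them, 430 values kept their direction and side of the threshold and 66 fell short of it. Other genes named in the text, such as Kat2b with TSA, were not scored, and small changes among them may change sign. Of the calls, 46 of 63 with TSA, 1 of 14 with LY294002 and 0 of 2 with SB202190 held under every alternative in which their probe set was tested. The mean filter of 100 left dimmer probe sets, such as that of Kdm8, untested, and these were not counted as lost there. The mean of a gene's probe sets was applied to the medians only, not to calls. With LY294002 against DMSO, the 14 member probe sets became 9 with no filter, 24 with the replicate block and 2 when the fit held only the 2 groups compared, and 3 (without DMSO replicate 2) to 18 (without DMSO replicate 1) when an array was left out. With SB202190 against DMSO, the 2 became 1 with quantile normalization, no filter or no variance trend, 0 with centring or the 2 groups alone, 4 with the replicate block, and 0 to 2 without an array. With UO126 the 0 became 1 with quantile normalization, a mean filter of 100, signals under 50 set to 50, or the replicate block, and stayed 0 without each array. LY294002 against UO126 (7) became 4 with centring, 13 with the replicate block, 3 with the 2 groups alone and 1 to 6 without an array. LY294002 against SB202190 (5) became 3 with centring, no filter or no variance trend and 3 to 4 without an array. UO126 against SB202190 (3) became 0 with centring, 6 with the replicate block, 1 with the 2 groups alone and 0 to 5 without an array. TSA counts stayed within 1.5 times: 57 to 60 against DMSO, 49 to 54 against LY294002, 56 to 60 against UO126 and 53 to 58 against SB202190 without an array, and 67, 57, 65 and 64 with the replicate block. Median changes over member genes became 0.24 with LY294002 centred, 0.13 with SB202190 centred and 0.066 with the mean over each gene's probe sets, and -0.10 with TSA under the mean filter of 100. Fewer samples or more tests enter some of these fits by construction, and otherwise the cause was not tested. Arrays of the same number correlated weakly in some pairs of several comparisons, although 15 of 15 arrays correlated best with their own number. The main fit did not use this pairing. Low signal limits Kdm8, Tet1 and the probe set of Kdm6b that was called lower, which read under 100 on every array.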
